A study of Mus musculus with 77 samples.

Results

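The genes described here are 7 that code for parts of the receptor for the inhibitory transmitter GABA or for its anchor at the synapse. They are Gabra2, Gabra4 and Gabra5 (alpha subunits), Gabrb1 and Gabrb2 (beta subunits), Gabrd (the delta subunit) and Gphn (gephyrin). Each was taken by its symbol, through every probe set annotated to that symbol alone. This gave 22 of the 45101 probe sets on the array and 7 of 18194 genes, and all 7 were among the 13271 genes bright enough to be tested.

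The GABA-A receptor is a pentamer that opens a chloride channel when GABA binds, and its mix of alpha, beta and gamma or delta subunits sets where the receptor sits and how it responds. Receptors with a gamma subunit are largely held at synapses, where gephyrin forms the scaffold under the membrane. Receptors with a delta subunit, often paired with alpha4, lie outside synapses and carry a tonic current, and alpha5 is also known from tonic currents. In the striatum these receptors serve the spiny projection neurons, which release GABA themselves and receive it from each other and from interneurons.

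The study profiled these neurons in a mouse model of Parkinson's disease and of its treatment with levodopa, the precursor of dopamine. Each of the 77 arrays holds messenger RNA from the dorsal striatum of a single mouse, purified by translating ribosome affinity purification (TRAP). In TRAP a ribosomal protein joined to green fluorescent protein (EGFP-L10a) is made in chosen cells, and the messenger RNA on the tagged ribosomes is pulled down with antibodies. The tag was carried on a bacterial artificial chromosome under Drd1 control in direct pathway neurons (dSPN, line CP73) or under Drd2 control in indirect pathway neurons (iSPN, line CP101).

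All mice were males of the C57BL/6J background, aged 9 to 14 weeks, and carried either Drd1::EGFP-L10a or Drd2::EGFP-L10a. Lesioned mice had received 6-hydroxydopamine (6-OHDA, 3.2 µg per µl), a toxin of dopamine neurons, in the right medial forebrain bundle. Mock-lesioned mice received the vehicle alone. Lesioned mice were kept in the study by their turning and limb use, so these groups were selected on behaviour. Chronic saline was given to mock-lesioned mice (10 dSPN and 10 iSPN mice) and to lesioned mice (11 dSPN and 7 iSPN). Other lesioned mice received low-dose levodopa (12 dSPN and 8 iSPN) or high-dose levodopa (11 dSPN and 8 iSPN). The low dose was 1 mg per kg on days 1 to 3 and 2 mg per kg on days 4 to 9. The high dose was 3 and then 6 mg per kg on the same days, and both came with 12 mg per kg benserazide, which blocks the breakdown of levodopa outside the brain. The saline groups are recorded without benserazide, so each levodopa change is that of both drugs together against saline.

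Values are log2 expression per probe set, normalised by the authors, so that a difference of 1 is a 2-fold change. The number of arrays limits the precision. Unless stated otherwise a gene is read from its brightest probe set, and a change is a difference of log2 group means with the standard error (SE) of 1 limma fit over all arrays. A gene was called changed at a Benjamini-Hochberg adjusted p under 0.05 over all genes tested. In bulk TRAP material, fewer cells of a type and less RNA per cell cannot be told apart. Levels of different genes are not compared, since probe sets differ in brightness.

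The driver genes separated the lines. Drd1 was at 11.80 ± 0.11 (SD, n = 10) in mock-lesioned dSPN and 10.07 ± 0.37 (SD, n = 10) in mock-lesioned iSPN, and Drd2 at 7.55 ± 0.31 and 12.42 ± 0.18. All 8 dSPN markers were higher and all 5 tested iSPN markers lower in dSPN than in iSPN. The 3 tested markers of cholinergic interneurons, cells that also use Drd2, were lower in dSPN as well. In mock-lesioned mice 11.6% of all genes were called higher and 10.9% lower in dSPN. Sample titles carry a serial and an animal number, and the arrays form 7 runs of serial numbers with rising animal numbers. Each run lies within 1 line, and the labels do not say what a run stands for.

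Promoter sequences were matched for 6 of the 7 genes from RefSeq (GRCm38.p6), in 9 windows, with no entry for Gabrd. Shown are 4 genes whose levels moved with levodopa or the lesion, from 250 bases before to 30 bases after the annotated start, 5′ to 3′ on the strand of the gene. Gabra2 lies at chr5:71095820-71096099 (minus strand), Gabra5 at chr7:57510030-57510309 (minus), Gabrb2 at chr11:42420190-42420469 (plus, the first of its windows) and Gphn at chr12:78226405-78226684 (plus). Capitals mark matches, on either strand, to 4 searched motifs: the cAMP response element TGACGTCA, its part TGACG, the AP-1 site TGANTCA and the Egr-type site GCGNGGGCG.
Gabra2: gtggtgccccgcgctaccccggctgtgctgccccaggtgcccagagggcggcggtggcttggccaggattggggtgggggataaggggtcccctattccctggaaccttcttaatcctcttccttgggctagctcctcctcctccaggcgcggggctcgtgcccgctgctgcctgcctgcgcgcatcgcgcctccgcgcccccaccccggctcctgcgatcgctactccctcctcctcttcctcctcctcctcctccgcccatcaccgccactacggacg
Gabra5: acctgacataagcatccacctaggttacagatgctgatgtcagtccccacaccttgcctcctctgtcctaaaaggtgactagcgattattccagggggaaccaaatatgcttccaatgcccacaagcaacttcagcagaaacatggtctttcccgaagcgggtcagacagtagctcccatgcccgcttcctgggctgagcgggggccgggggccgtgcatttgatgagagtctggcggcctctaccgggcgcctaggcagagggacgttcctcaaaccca
Gabrb2: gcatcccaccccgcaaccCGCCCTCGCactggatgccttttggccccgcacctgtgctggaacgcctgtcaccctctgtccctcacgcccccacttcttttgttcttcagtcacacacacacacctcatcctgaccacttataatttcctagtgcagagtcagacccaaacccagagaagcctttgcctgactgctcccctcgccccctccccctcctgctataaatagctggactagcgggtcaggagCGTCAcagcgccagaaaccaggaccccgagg
Gphn: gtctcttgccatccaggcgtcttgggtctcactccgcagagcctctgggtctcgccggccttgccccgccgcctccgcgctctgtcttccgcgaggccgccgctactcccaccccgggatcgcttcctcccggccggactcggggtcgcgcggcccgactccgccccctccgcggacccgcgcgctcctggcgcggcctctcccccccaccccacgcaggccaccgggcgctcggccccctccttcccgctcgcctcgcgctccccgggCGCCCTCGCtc

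The search covered 300 bases a window, up to 50 bases after the start, and TGACG also lies within the full cAMP response element. Gabrb2 held a match to TGACG at its start and 1 Egr-type match far upstream in the window. Gphn had 1 Egr-type match just after its start, and the first Gabrb1 window had 2. No window of the 6 genes held TGACGTCA or TGANTCA. Of 32851 RefSeq promoters of this length, 1.79% held TGACGTCA, 20.8% TGACG, 7.81% TGANTCA and 5.55% the Egr-type site. The Gphn window was 77% and the Gabra2 window 70% G or C, against a median of 52.7% over all promoters. Gabra4 (minus strand) and Gabrb1 (plus) start on opposite strands of chromosome 5, with 288 bases between the Gabra4 window and the first Gabrb1 window. By these windows the Gabra4 start lies downstream of the Gabrb1 start. The 2 starts therefore read toward each other, and the genes overlap there.

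Gabrd, the delta subunit, was much lower in levodopa-treated dSPN than in saline-treated dSPN. In lesioned dSPN it fell to 52.5% of the saline level at the high dose and to 49.7% at the low dose. In iSPN neither dose gave a called change, whereas Gabrd in lesioned mice on saline was at 65.3% of the mock level. That call was lost under 3 of 12 alternatives, run as a fixed block among them.

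In dSPN, Gabrd ran from 10.49 to 10.98 (median 10.85) in mock-lesioned mice and from 10.53 to 11.16 (median 10.88) in lesioned mice on saline. On the high dose it ran from 9.63 to 10.33 (median 9.89), and on the low dose from 9.26 to 10.45 (median 9.88). Every levodopa-treated dSPN array lay below every saline-treated one, mock-lesioned or lesioned. The change from lesioned saline was -0.93 at the high dose (SE 0.13, adjusted p = 8.32e-09) and -1.01 at the low dose (SE 0.13, adjusted p = 9.0e-10). The doses gave nearly the same level, with a difference of 0.08 (95% interval -0.17 to 0.33, adjusted p = 0.79). Ranges without overlap were found for 11.4% of all genes at the high dose and 4.8% at the low dose. Against mock-lesioned mice the changes were -0.88 (high dose, adjusted p = 7.57e-08) and -0.96 (low dose, adjusted p = 1.05e-08), also without overlap, which held for 11.1% and 4.64% of all genes.

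In iSPN, Gabrd lay between 10.36 and 11.53 (median 10.89) in mock-lesioned mice and between 9.74 and 10.77 (median 10.52) in lesioned mice on saline. The high dose gave 10.14 to 10.86 (median 10.60) and the low dose 9.89 to 11.12 (median 10.55). All 4 ranges overlap. The lesion change was -0.62 (SE 0.15, adjusted p = 0.0051). With run as a fixed block it was -0.55 (adjusted p = 0.46) and no longer called, and no run held 2 or more arrays of both groups. Levodopa changed Gabrd in iSPN by 0.19 at the high dose (95% interval -0.12 to 0.51) and by 0.16 at the low dose (95% interval -0.16 to 0.48), neither called. Relative to mock-lesioned iSPN, Gabrd remained lower on both doses, by -0.42 (adjusted p = 0.031) and -0.46 (adjusted p = 0.028), calls that the run block also ends.

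**Figure D1:**
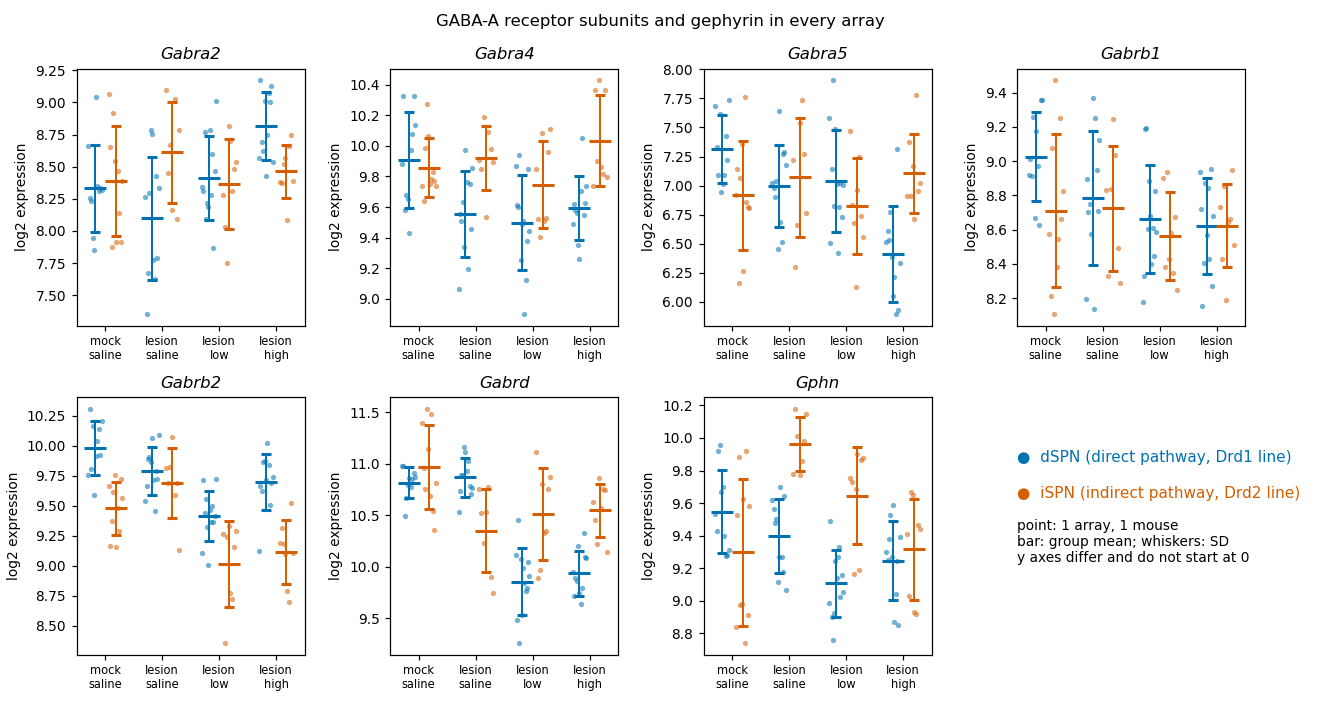
Log2 expression of the 7 genes in every array, by surgery and drug on the horizontal axis, with dSPN in blue and iSPN in orange; each point is 1 mouse, bars are group means and whiskers SD, and the vertical axes differ and do not start at 0. In the Gabrd panel all dSPN points on levodopa lie at 10.45 or below and all saline dSPN points at 10.49 or above, and in the Gphn panel lesioned iSPN on saline stand highest.

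Gabra5 and Gabra2, both alpha subunits, changed in opposite directions in dSPN on the high dose. Gabra5 fell to 66.6% of the lesioned saline level and Gabra2 rose 1.65-fold. By their brightest probe sets, neither was called at the low dose in dSPN or at either dose in iSPN.

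Gabra5, a subunit best known from hippocampal tonic inhibition, ran in dSPN from 6.94 to 7.74 (median 7.28) in mock-lesioned mice and from 6.45 to 7.65 (median 7.02) after the lesion. On the low dose it ran from 6.42 to 7.91 (median 7.01) and on the high dose from 5.89 to 7.32 (median 6.38). The high-dose group was the lowest of all 8 groups, and its range overlaps the others. The change from lesioned saline was -0.59 (SE 0.17, adjusted p = 0.0034), from the low dose -0.63 (SE 0.17, adjusted p = 0.011; with run as a fixed block -0.87, adjusted p = 0.080, not called) and from mock -0.90 (SE 0.18, adjusted p = 1.63e-05). At the low dose the change from lesioned saline was 0.04 (95% interval -0.29 to 0.38). In iSPN the group means of Gabra5 stayed between 6.83 ± 0.41 (low dose, SD, n = 8) and 7.10 ± 0.34 (high dose, SD, n = 8), and none of the changes was called.

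Gabra2, the alpha subunit of many synaptic receptors in the forebrain, ran in lesioned dSPN from 7.35 to 8.79 (median 8.26) on saline, from 7.87 to 9.01 (median 8.33) on the low dose and from 8.42 to 9.17 (median 8.74) on the high dose. Mock-lesioned dSPN ran from 7.85 to 9.04 (median 8.31), so the groups overlap and the high-dose arrays fill the upper part. The high-dose change from lesioned saline was 0.72 (SE 0.15, adjusted p = 5.98e-05) and from mock 0.49 (SE 0.16, adjusted p = 0.0083; with run as a fixed block adjusted p = 0.15). The low dose gave 0.31 (SE 0.15, adjusted p = 0.096), which was called under 3 of 12 alternatives (lowest adjusted p = 0.012). With the mean of oligodendrocyte markers as a covariate the high-dose change was 0.42 (adjusted p = 0.090) and was no longer called. In iSPN, Gabra2 had group means of 8.39 ± 0.43 (mock, SD, n = 10), 8.61 ± 0.40 (lesion, SD, n = 7), 8.36 ± 0.35 (low dose, SD, n = 8) and 8.47 ± 0.21 (high dose, SD, n = 8), which differed by less than their spread.

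Gabra4, the usual alpha partner of delta outside synapses, did not follow Gabrd. In dSPN its mean was 9.91 ± 0.31 (SD, n = 10) in mock-lesioned mice, 9.55 ± 0.28 (SD, n = 11) after the lesion, 9.50 ± 0.31 (SD, n = 12) on the low dose and 9.59 ± 0.21 (SD, n = 11) on the high dose. The 3 lesioned groups thus lay close together below the mock group. The lesion change of -0.35 (SE 0.12) had an adjusted p of 0.097 and was not called, while the low-dose and high-dose groups differed from mock by -0.41 (adjusted p = 0.0038) and -0.31 (adjusted p = 0.024). Neither was called with run as a fixed block (adjusted p = 0.059 and 0.085). Levodopa with benserazide gave 0.04 (high dose) and -0.06 (low dose) against lesioned saline, neither called. In iSPN the means of Gabra4 lay between 9.75 ± 0.29 (low dose, SD, n = 8) and 10.04 ± 0.30 (high dose, SD, n = 8), with no called change.

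Gabrb2, a beta subunit, fell with levodopa in iSPN and, at the low dose, in dSPN. In lesioned iSPN it fell to 67.2% of the saline level at the high dose and to 62.8% at the low dose, and in lesioned dSPN it fell by 0.38 on the log2 scale at the low dose. Gabrb1, the other beta subunit, was called in neither cell type against lesioned saline.

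In iSPN, Gabrb2 ran from 9.15 to 9.75 (median 9.52) in mock-lesioned mice and from 9.13 to 10.08 (median 9.69) in lesioned mice on saline. It ran from 8.36 to 9.33 (median 9.20) on the low dose and from 8.70 to 9.52 (median 9.15) on the high dose. The levodopa groups lie mostly below the saline groups, with some overlap. The high-dose change was -0.57 (SE 0.13, adjusted p = 0.0014) and the low-dose change -0.67 (SE 0.13, adjusted p = 3.92e-04). With run as a fixed block the high-dose change was -0.61 (adjusted p = 0.068). Within the run that held 8 high-dose and 2 saline arrays the difference was -0.64, and within the run with 8 low-dose and 4 saline arrays it was -0.66.

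In dSPN, Gabrb2 was at 9.98 ± 0.23 (SD, n = 10) in mock-lesioned mice, 9.79 ± 0.20 (SD, n = 11) after the lesion, 9.41 ± 0.21 (SD, n = 12) on the low dose and 9.70 ± 0.24 (SD, n = 11) on the high dose. The low-dose group was the lowest. Its change was -0.38 from lesioned saline (SE 0.10, adjusted p = 0.0028) and -0.57 from mock (SE 0.11, adjusted p = 1.59e-05). The high-dose change from lesioned saline was -0.09 (95% interval -0.31 to 0.12), and from mock -0.29 (adjusted p = 0.027; with run as a fixed block adjusted p = 0.14). High against low dose gave 0.28 (adjusted p = 0.089), not called.

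Gabrb1 in dSPN was at 9.03 ± 0.26 (SD, n = 10) in mock-lesioned mice, 8.79 ± 0.39 (SD, n = 11) after the lesion, 8.66 ± 0.32 (SD, n = 12) on the low dose and 8.62 ± 0.28 (SD, n = 11) on the high dose. Only the levodopa groups differed from mock at the threshold, by -0.36 (low dose, adjusted p = 0.039) and -0.40 (high dose, adjusted p = 0.017). The low-dose call was lost under 5 of 12 alternatives (highest adjusted p = 0.17) and the high-dose call under 1 (the oligodendrocyte covariate, adjusted p = 0.11). In iSPN its 4 means lay between 8.56 ± 0.26 (low dose, SD, n = 8) and 8.72 ± 0.36 (lesion, SD, n = 7), and no change was called.

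Gephyrin rose with the lesion in iSPN and fell with the high dose. In iSPN, Gphn rose 1.58-fold after the lesion, and the high dose brought it down to 63.9% of that level. The difference between high-dose and mock-lesioned iSPN was 0.02 (95% interval -0.25 to 0.28) by the brightest probe set. Over the 3 Gphn probe sets this difference ran from -0.66 to 0.22, with none called.

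Gphn in iSPN ran from 8.74 to 9.92 (median 9.26) in mock-lesioned mice and from 9.77 to 10.18 (median 9.98) in lesioned mice on saline. The low dose gave 9.17 to 9.90 (median 9.74) and the high dose 8.92 to 9.67 (median 9.43). All 8 high-dose arrays lay below all 7 lesioned saline arrays, which held for 1.57% of all genes. The mock and lesion groups overlap at their edges. The lesion change was 0.66 (SE 0.14, adjusted p = 7.15e-04) and the high-dose change -0.65 (SE 0.15, adjusted p = 0.0015). The low-dose change was -0.31 (SE 0.15, adjusted p = 0.23), and high against low dose was -0.33 (adjusted p = 0.37), neither called. No run held both high-dose and low-dose iSPN arrays. With run as a fixed block the lesion change was 0.86 (adjusted p = 0.040). Of the runs that held both groups, 1 had 9 mock arrays and 1 lesioned saline array. The other had 1 mock array and 2 lesioned saline arrays, so this value rests on few shared arrays. The high-dose change with the block was -0.62 (adjusted p = 0.11), and within the run with 8 high-dose and 2 saline arrays the difference was -0.78.

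In dSPN, Gphn was at 9.55 ± 0.25 (SD, n = 10) in mock-lesioned mice, 9.40 ± 0.23 (SD, n = 11) after the lesion, 9.11 ± 0.21 (SD, n = 12) on the low dose and 9.25 ± 0.24 (SD, n = 11) on the high dose. The low-dose change from lesioned saline was -0.29 (SE 0.12, adjusted p = 0.044). This call was lost under 7 of 12 alternatives, and with the mean of its 3 probe sets the value was 0.13 (adjusted p = 0.44). Against mock, the low-dose and high-dose groups were lower by -0.44 (adjusted p = 0.0029) and -0.30 (adjusted p = 0.041), neither of which was called with run as a fixed block (adjusted p = 0.078 and 0.084).

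**Figure D2:**
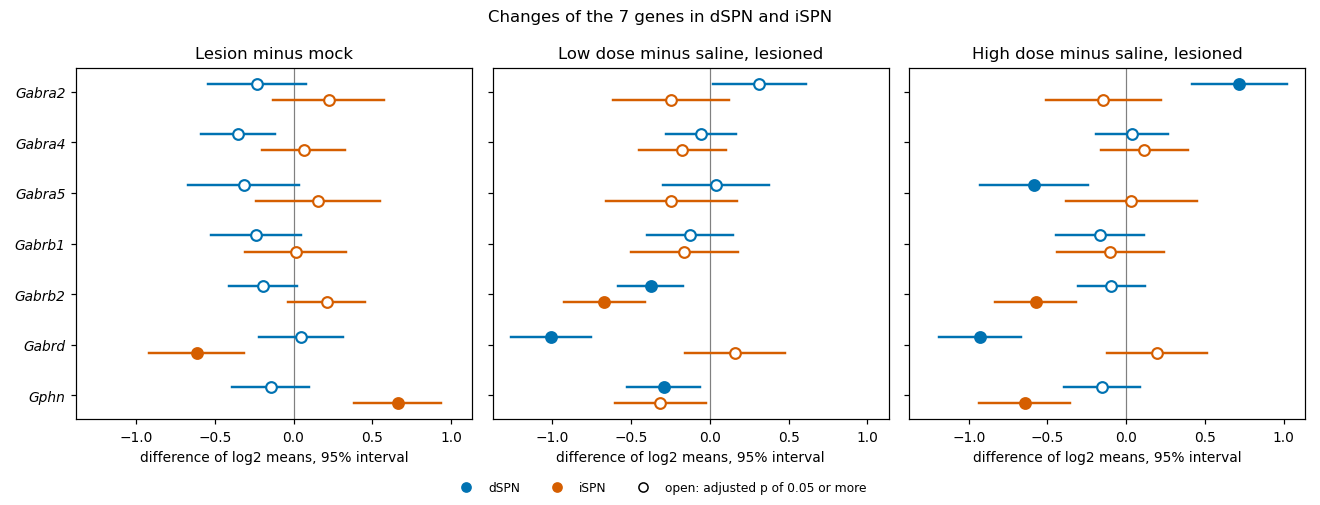
Changes of the 7 genes in dSPN (blue) and iSPN (orange) for lesion minus mock, low dose minus saline and high dose minus saline, as differences of log2 means with 95% intervals; filled points are called at an adjusted p under 0.05 and open points are not. Gabrd stands at -1.01 and -0.93 in dSPN on levodopa but at -0.62 in iSPN after the lesion. Gphn in iSPN stands at 0.66 for lesion minus mock. For high dose minus saline, where the reference is lesioned mice on saline, it stands at -0.65.

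The counts for the 7 genes are read against the share of all genes called. In dSPN the lesion called none of the 7 (1, Gabra4, at an unadjusted p under 0.05) and 2.48% of all genes. The high dose called 3 (1 higher, 2 lower) against 45.6% of all genes, and the low dose called 3, all lower, against 34.1%. Both counts are close to the background, and high against low dose called 1, Gabra5, against 6.8%. Against mock-lesioned dSPN the high dose called all 7 (1 higher, 6 lower) where 43.4% of all genes were called, and the low dose called 5, all lower, where 30.2% were. A fixed block for run gave counts of 3 and 2, and with the oligodendrocyte covariate the high-dose count was 3. The shares of all genes here are from the main fit, so these refitted counts have no background beside them.

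In iSPN the lesion called 2 (Gphn higher, Gabrd lower) against 6.2% of all genes, the high dose 2 (Gabrb2 and Gphn, lower) against 9.86%, and the low dose 1 (Gabrb2, lower) against 4.18%. High against low dose in iSPN called none of the 7 (2 at an unadjusted p under 0.05) and 0.173% of all genes. All 8 high-dose iSPN arrays lay in 1 run and all 8 low-dose iSPN arrays in another, so dose and run cannot be told apart there. Against mock-lesioned iSPN the high and low dose each called Gabrb2 and Gabrd, lower, against 18.7% and 11% of all genes, and with run as a fixed block neither gene was called at either dose. The lesion changed the 7 genes by a median of -0.23 in dSPN and 0.16 in iSPN, where all genes had -0.0022 and -0.0060. For the high dose it was -0.15 in dSPN and -0.10 in iSPN, against -0.036 and 0.012.

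Markers of other cells moved with levodopa in dSPN. Of 9 tested oligodendrocyte markers 8 were lower at the high dose and 8 at the low dose, and of 9 astrocyte markers 5 and 4 were lower, where 25.5% and 19% of all genes were called lower. The mean of the oligodendrocyte markers ran from 7.44 to 8.60 in lesioned dSPN on saline, from 6.05 to 7.33 on the high dose and from 6.32 to 7.29 on the low dose. The astrocyte mean ran from 6.08 to 6.83, 5.23 to 6.27 and 5.17 to 6.28 in the same groups. Of 5 iSPN markers, 4 were lower at each dose and 1 higher at the high dose, and their mean ran from 6.81 to 7.57 on saline, 6.03 to 7.15 on the high dose and 6.03 to 6.89 on the low dose. All 7 tested markers shared by both kinds of spiny projection neuron were also lower at either dose, with median changes of -0.29 and -0.21. With the oligodendrocyte mean as a covariate the Gabrd changes were -1.25 (high dose) and -1.30 (low dose), and with the astrocyte mean -1.22 and -1.33, each larger than without. The oligodendrocyte ranges on saline and on levodopa do not overlap and the astrocyte ranges overlap little. These adjusted values thus rest on little or no shared range, and the part of these cells in the Gabrd fall was not tested.

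In iSPN no oligodendrocyte or astrocyte marker was called for the lesion or either dose. After the lesion in iSPN, 4 of 8 dSPN markers were lower, where 3.01% of all genes were called lower. The mean of these markers ran from 7.15 to 8.14 in mock-lesioned and from 6.63 to 7.66 in lesioned mice on saline. The part of these markers in the Gabrd and Gphn changes of lesioned iSPN was not tested.

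Run and group were partly nested. Within the run that held 9 high-dose and 6 saline arrays of lesioned dSPN, the differences were -1.01 for Gabrd, 0.63 for Gabra2 and -0.62 for Gabra5. No run held both low-dose and lesioned saline dSPN arrays. With run as a fixed block these groups are compared only indirectly, through mock and high-dose arrays that share their runs. The low-dose changes in dSPN were then -1.16 for Gabrd (adjusted p = 3.58e-05) and -0.50 for Gabrb2 (adjusted p = 0.040).

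The lesion and the doses acted differently in the lines for several of the 7 genes, by interaction terms (the dSPN effect less the iSPN effect). For the lesion, Gabrd differed by 0.66 (SE 0.20, adjusted p = 0.037) and Gphn by -0.81 (SE 0.18, adjusted p = 0.0025), 2 of 7 genes where 4.86% of all genes were called. For the high dose, Gabrd differed by -1.12 (SE 0.21, adjusted p = 1.24e-05), Gabra2 by 0.86 (SE 0.24, adjusted p = 0.0043), Gabrb2 by 0.48 (SE 0.17, adjusted p = 0.026) and Gphn by 0.49 (SE 0.19, adjusted p = 0.045), against 25% of all genes. For the low dose only Gabrd did, by -1.17 (SE 0.20, adjusted p = 1.22e-05), against 14.8%. The Gabra5 term at the high dose was -0.62 (adjusted p = 0.084), so its fall was not shown to differ between the lines. The terms still called with run as a fixed block were Gphn for the lesion and Gabrd for both doses. Over 11 alternatives the Gabrd lesion term was lost under 5 and the Gphn high-dose term under 6.

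Line and run cannot be told apart, so comparisons between lines carry the runs with them. In mock-lesioned mice Gabrb2 alone of the 7 differed, higher in dSPN by 0.51 (SE 0.11, adjusted p = 3.64e-04), where 22.5% of all genes were called. In lesioned mice on saline 4 were called against 22.2%: Gabrd was higher in dSPN by 0.51 (adjusted p = 0.0070), and Gphn (-0.56, adjusted p = 0.0012), Gabra2 (-0.51, adjusted p = 0.023) and Gabra4 (-0.37, adjusted p = 0.032) were lower. The Gphn ranges, 9.07 to 9.70 in dSPN and 9.77 to 10.18 in iSPN, did not overlap, which held for 3.79% of all genes. Without the least typical array of each group, of these 4 calls only that of Gphn was left (-0.52, adjusted p = 0.0053).

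On the low dose Gabrb2 was higher in dSPN by 0.40 (adjusted p = 0.0037) and Gabrd (-0.66, adjusted p = 1.03e-04) and Gphn (-0.54, adjusted p = 4.81e-04) lower, 3 of 7 against 36.7% of all genes. On the high dose Gabrb2 was higher by 0.58 (adjusted p = 2.46e-05), and Gabra5 (-0.69, adjusted p = 0.0017), Gabrd (-0.61, adjusted p = 2.97e-04) and Gabra4 (-0.44, adjusted p = 0.0027) were lower, 4 of 7 against 43.1%. Gabrd thus went from higher in dSPN in lesioned mice on saline to lower in dSPN on either dose. Oligodendrocyte markers also differed between the lines: in mock-lesioned mice 7 of 9 were lower in dSPN, where 10.9% of all genes were called lower.

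Ordered by group mean, Gabrd was highest in mock-lesioned iSPN, followed within the spread by the lesioned saline and the mock dSPN groups. A gap wider than the larger SD led to the 3 lesioned iSPN groups, and another to the dSPN groups on levodopa. For Gphn, lesioned iSPN on saline stood above the rest by such a gap, and the other 7 groups followed in steps within their SD. For Gabra5 the high-dose dSPN group stood below the rest, and for Gabrb2 the iSPN groups on levodopa did. The gap for Gabra5 only just passed the larger SD (0.4144 against 0.4138), and that for Gabrb2 was 0.30 against 0.27. Neighbouring groups of Gabra2, Gabra4 and Gabrb1 never differed by more than the larger SD.

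The probe sets of a gene did not always move together, and all 22 were read in a second fit over all probe sets. Gabra2 had 5, of which 2 were dim. At the high dose in dSPN its other bright probe sets rose by 1.10 (1443865_at, adjusted p = 0.0025) and 0.80 (1455444_at, adjusted p = 6.47e-05), beside 0.72. At the low dose these probe sets gave 0.66 (not called) and 0.46 (adjusted p = 0.032), beside 0.31. In mock-lesioned mice, however, 1455444_at was lower in dSPN than in iSPN by -0.86 (adjusted p = 1.57e-04), where the brightest Gabra2 probe set gave -0.06. All 5 Gabrb2 probe sets were called lower at the low dose in dSPN, by -0.35 to -0.43. In iSPN at the low dose the changes of the 5 ran from -0.67 to -0.11 and only the brightest was called. The interaction terms also depended on the probe set. For the lesion, neither Gabrd probe set was called, and 2 of 3 Gphn probe sets were. For the high dose, 1 of 3 bright Gabra2, 1 of 5 Gabrb2, 1 of 3 Gphn and 1 of 2 Gabrd probe sets were called.

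Gabrd had 2 probe sets, and the dim one (1457763_at, mean 4.3) was called in none of the comparisons, so the result on Gabrd rests on 1449980_a_at. For Gphn the 3 probe sets gave 0.66, 0.43 and 0.40 for the lesion in iSPN, of which the first was called, and -0.65, -0.21 and -1.06 for the high dose, again with the first called. In this fit, which adjusts over more probe sets, the low-dose change of Gphn in dSPN (-0.29) was not called. Between the lines on the high dose, Gphn probe sets were called in opposite directions: in dSPN 1426462_at was lower (-0.51, adjusted p = 0.0019), 1430038_at higher (0.90, adjusted p = 0.044) and the brightest, at -0.07, was not called. On the low dose the brightest (-0.54) and 1426462_at (-0.45) were called lower, while 1430038_at gave 0.35, not called. In dSPN a second Gphn probe set (1426462_at) fell with the lesion by -0.46 (adjusted p = 0.045), where the brightest gave -0.15. One of 4 Gabrb1 probe sets (1443205_at) fell in dSPN at both doses, by -0.37 (high, adjusted p = 0.017) and -0.38 (low, adjusted p = 0.016), while the brightest was not called. In iSPN on the low dose against mock, 1 of the 4 was called lower, and the largest fall was that of 1443205_at (-0.47). Neither Gabra4 probe set was called in the 6 comparisons of lesion and dose, and Gabra5 had a single one.

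**Figure D3:**
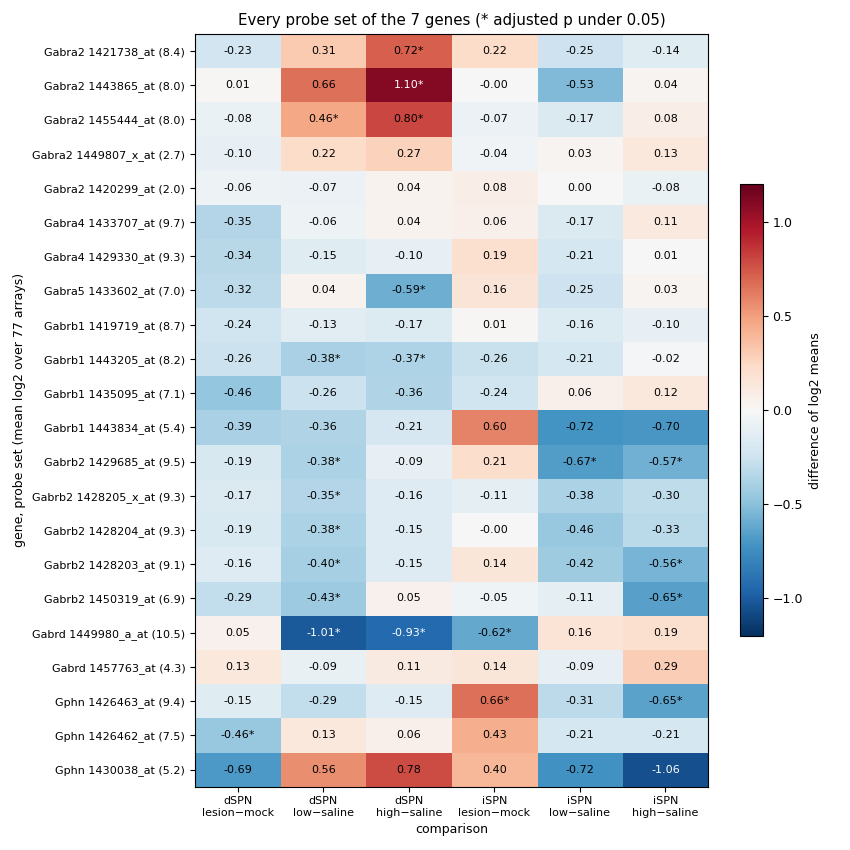
Differences of log2 means of all 22 probe sets (rows, with their mean log2 level in brackets) in the 6 comparisons of lesion and dose (columns); red is higher, blue lower, and a star marks an adjusted p under 0.05. The 5 Gabrb2 rows are all starred at the low dose in dSPN, and the dim Gabrd row lacks the change of -1.01 seen in the bright one.

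Other subunits of GABA and glycine receptors were measured less well. Of those listed, 15 were read under a single symbol and 6 were bright enough to test. The lesion and the low dose in dSPN called none of the 6, and the high dose called 2, both lower, where 2.48%, 34.1% and 45.6% of all genes were called. These were Gabrg3, a gamma subunit (-0.56, adjusted p = 0.0047), and Gabbr1, a subunit of the metabotropic GABA-B receptor (-0.20, adjusted p = 0.010). In iSPN the lesion called 1 of 6, Gabrg3 (-0.67, adjusted p = 0.026), and neither dose called any, where 6.2% (lesion), 9.86% (high dose) and 4.18% (low dose) of all genes were called. The median change of the 6 was -0.28 at the high dose in dSPN, beside -0.036 over all genes.

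Of 34 genes for partners of gephyrin, receptor transport and chloride balance, 32 were tested. In dSPN the lesion called none, the high dose called 7 higher and 10 lower, and the low dose 5 higher and 7 lower. Of all genes 2.48%, 45.6% and 34.1% were called, so these counts are close to the background. Dmd (dystrophin, part of a membrane complex at some inhibitory synapses) fell by 1.17 at the high dose and 0.84 at the low dose (log2 changes -1.17 and -0.84). Dag1 (dystroglycan, of the same complex) had -0.63 at the low dose, and Mocs1 (molybdenum cofactor synthesis, gephyrin's other role) -1.03 and Arfgef2 (vesicle traffic) -0.88 at the high dose. The transport adaptors moved the other way: Trak1 rose by 0.69 and 0.62 at the high and low dose, and Trak2 by 0.68 at the low dose. The median change of the list was -0.17 and -0.10, beside -0.036 and -0.037 over all genes.

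In iSPN the lesion called 1 of the 32, higher, the high dose 2 higher and 3 lower, and the low dose 1 higher and 3 lower, beside 6.2%, 9.86% and 4.18% of all genes. Lhfpl3, a relative of a receptor-associated protein of inhibitory synapses, rose with the lesion by 0.83 (adjusted p = 0.0027) and fell at the high dose (-0.79, adjusted p = 0.0056) and the low dose (-0.78, adjusted p = 0.013). Slitrk3, an adhesion molecule of inhibitory synapses, changed by -0.74 and -0.57 at the high and low dose. Slc12a5, the neuronal chloride exporter KCC2, changed by -0.49 at the high dose (adjusted p = 3.43e-05) and -0.50 at the low dose (adjusted p = 6.81e-05). Gabarap, which links receptors to their transport, rose by 0.24 and 0.22.

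Over the 8 group means, each centred on its own mean, the tested genes nearest to Gabrd were Kctd18, Grid1 and BC031361, at a root mean square distance of 0.11, 0.11 and 0.11 log2 units where the group means of Gabrd itself spread by 0.39. Nearest to Gphn were Lbr, Simc1 and Med15 (0.091, 0.099 and 0.11, own spread 0.25), and nearest to Gabrb2 were Slc16a11, Rasgrf1 and Nat10 (0.080, 0.10 and 0.12, own spread 0.31). Dennd11, Ugcg and Ift43 were nearest to Gabra2, Prkdc, Coa3 and Spock3 to Gabra4, Ccdc58, Ctr9 and Pcyox1l to Gabra5, and Ccl27a, Npb and St8sia3 to Gabrb1, at distances from 0.046 to 0.093. None of these neighbours is itself one of the 7.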

How the data were processed

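The deposited table holds log2 values for each probe set of an Affymetrix mouse array, made by the authors with RMA and the affy package per the submitters' processing notes, with no version given. RMA brings arrays to 1 distribution, so a shift of most genes would not be seen, and array medians ran from 4.31 to 4.42. Scanner files were not used here. Probe sets with several (932) or no (9211) gene symbols were left out. A gene was read from its single-symbol probe set with the highest mean and tested if that mean was above the 40th percentile of all probe sets (3.55). limma 3.58.1 (R 4.3.3; lmFit, eBayes) was fitted to 8 group means over all 77 arrays with 69 residual degrees of freedom, with two-sided tests and Benjamini-Hochberg adjustment within each of 19 comparisons, and was tested on simulated data. The simulated data had no runs. For the high dose against saline in lesioned dSPN, 53% of added changes of 0.5 and 89% of those of 1 were called in the right direction. A change that was not called is thus not shown to be absent. All 45101 probe sets were fitted again without a filter for the single probe sets.

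The genes and lists were chosen with earlier results of these data known. All 7 genes were tested in every comparison, and some changes that were not called are not printed. From each wider list up to 4 called members of largest change are named in the 6 comparisons of lesion and dose. The 3 nearest genes by group means are named as well. Other probe sets and Gabrg1 were chosen after their values were seen. The 12 alternatives are covered in the closing section. Figures were drawn with matplotlib 3.10.9.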

Additional observations from a re-analysis of the deposited data

Results flagged for a closer look

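In 7 of 21 interaction terms the effect of the lesion or of a dose differed between the lines (dSPN minus iSPN). For the lesion these were Gabrd (0.66) and Gphn (-0.81). For the high dose they were Gabra2 (0.86), Gabrb2 (0.48), Gabrd (-1.12) and Gphn (0.49), and for the low dose Gabrd (-1.17). Of all genes 4.86%, 25% and 14.8% were called in these terms. A fixed block for run left only Gphn for the lesion and Gabrd for both doses called. Over 11 alternatives the Gabrd lesion term was lost under 5 and the Gphn high-dose term under 6. Run and line cannot be told apart. In the groups of 7 to 10 arrays, 35 pairs of a gene and a group were tested for an array standing apart, and none had one.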

How the results depend on the processing

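Over 12 alternatives, 1519 changes of single genes were recomputed. Of these 64 were no longer called, 27 became called, 2 called changes turned sign and the rest kept their side of the threshold (changes called in neither setting count here whatever their sign). Of 47 called changes 19 were called under every alternative. They include Gabrd at both doses in dSPN (high dose -1.25 to -0.41), Gabra5 at the high dose in dSPN (-0.91 to -0.50) and Gphn after the lesion in iSPN (0.50 to 0.86). For this Gphn change no run held 2 or more arrays of both groups. The sign changes came with the mean of a gene's probe sets: 0.13 for Gphn at the low dose against lesioned saline in dSPN and 0.0088 for Gabrd at the high dose against mock in iSPN.

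The number of the 7 genes called moved by more than 1.5 times in these cases (smaller moves, such as 3 to 2 or 4 for the low dose in dSPN, are not listed). With run as a fixed block it went from 1 to 0 for high against low dose in dSPN, 7 to 3 and 5 to 2 for high and low dose against mock in dSPN, 2 to 1 for the lesion in iSPN, 2 to 0 for the high dose in iSPN, 2 to 0 for each dose against mock in iSPN, and 2 to 1 and 4 to 1 for the lesion and high-dose interactions. With each line fitted on its own arrays it was 2 for high against low dose in dSPN, 1 for the lesion in iSPN, and 0 and 1 for high and low dose against mock in iSPN. Comparisons between lines cannot be fitted under these 2 settings. Array weights gave 1 for the lesion in dSPN, 2 for high against low dose in dSPN, 1 for each dose against mock in iSPN, 1 for the lesion interaction and 2 for the low-dose interaction. The mean of probe sets gave 2 for the lesion in dSPN, 2 for high against low dose in dSPN, 1 for the lesion in iSPN, 1 for each dose against mock in iSPN, 2 and 1 for the line comparisons in mock-lesioned and low-dose mice, and 3 for the low-dose interaction. Without the least typical array of each group it was 2 for high against low dose in dSPN, 1 for the lines in lesioned mice on saline and 1 for the lesion interaction. Run as a random block gave 2 for high against low dose in dSPN, centring on array medians gave 1 for the lesion interaction, the oligodendrocyte covariate gave 3 for high dose against mock in dSPN, and the astrocyte covariate gave 2 for the lines in mock-lesioned mice and 2 for the high-dose interaction.

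The consensus correlation within runs was -0.021. The cause of these moves was not tested. No paired analysis was possible because the labels give no replicate number that groups share. Low signal limits the dim Gabrd probe set and 2 of Gabra2.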

Other observations

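Several of the receptor genes are neighbours in the mouse genome (RefSeq, GRCm38.p6). On chromosome 5 the protein-coding genes run Gabrg1, Gabra2, Cox7b2, Gabra4, Gabrb1, and at the high dose in lesioned dSPN the changes along this order were -0.10 for Gabrg1 (SE 0.38, not called), 0.72 for Gabra2 (called), 0.04 for Gabra4 and -0.17 for Gabrb1 (neither called). On chromosome 7 Gabrg3 and Gabra5 lie side by side, and both fell at the high dose in dSPN, by 0.56 and 0.59 (log2 changes -0.56 and -0.59). After the lesion in iSPN Gabrg3 was lower (-0.67, adjusted p = 0.026), while Gabra5 gave 0.16 (95% interval -0.24 to 0.55). Slc12a5, the chloride exporter, changed in dSPN by -0.48 at the high dose (adjusted p = 1.86e-08) and -0.48 at the low dose (adjusted p = 2.63e-08), and Slc12a2, the chloride importer NKCC1, by 0.06 and -0.11, neither called. These genes were picked after their values were seen, and no difference between neighbours was tested.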
